A study of Mus musculus with 4 samples.

Results

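The loci of Cdkn1a and Cdkn1b were examined on 4 two-colour arrays of methylated DNA from mouse 3T3-L1 cells. Probes were chosen by position alone, as the genomic probes between 29220000 and 29242000 of chromosome 17 (Cdkn1a) and between 134865000 and 134880000 of chromosome 6 (Cdkn1b), in mm9 coordinates. These windows held 31 of the 174638 genomic probes of the array, 16 for Cdkn1a and 15 for Cdkn1b. 3T3-L1 is a mouse embryo fibroblast line that becomes adipocytes when induced. The control was the wildtype line, and the other line was stably transfected with slincRAD-shRNA8, an shRNA directed against the long non-coding RNA slincRAD. Nothing in the labels says whether the shRNA8 line was 1 clone or a pool, and the control line carried no shRNA of its own. Cells of each line were taken at day -2, before adipogenesis was induced, and at day +2. The inducing agents were insulin at 167 nM, dexamethasone at 1 µM and 3-isobutyl-1-methylxanthine at 0.5 mM. There was 1 array per line and day, so no difference here has a replicate error, and p-values come only from 1 added fit over all 4 arrays.

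Cdkn1a encodes p21 and Cdkn1b encodes p27, the CIP/KIP proteins that bind and inhibit complexes of cyclins with cyclin-dependent kinases. Transcription of Cdkn1a is a classic target of p53, whereas p27 is controlled to a large part through degradation of the protein. Growth-arrested 3T3-L1 cells re-enter the cell cycle soon after induction, a phase called mitotic clonal expansion, and both inhibitors have been studied as brakes on it. Methylation of cytosine in CpG dinucleotides at a promoter is usually linked to low transcription. The assay recovers DNA fragments with an antibody against 5-methylcytosine, so its signal depends both on methylation and on how many CpGs a fragment holds.

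The sequences in front of the start sites of both genes are shown because they set how many CpGs could be methylated there. RefSeq (GRCm38.p6) gives Cdkn1a 2 start sites on the plus strand, with upstream sequences at chr17:29090729-29090978 and chr17:29093519-29093768, and Cdkn1b 1 start site with chr6:134920151-134920400. Each sequence below holds the 250 bases before the start site, 5′ to 3′, with every CpG in capitals.
Cdkn1a upstream promoter: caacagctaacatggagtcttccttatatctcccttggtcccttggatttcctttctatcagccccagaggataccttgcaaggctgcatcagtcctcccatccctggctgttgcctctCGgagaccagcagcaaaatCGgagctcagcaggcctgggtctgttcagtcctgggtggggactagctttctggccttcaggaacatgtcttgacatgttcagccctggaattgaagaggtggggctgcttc
Cdkn1a downstream promoter: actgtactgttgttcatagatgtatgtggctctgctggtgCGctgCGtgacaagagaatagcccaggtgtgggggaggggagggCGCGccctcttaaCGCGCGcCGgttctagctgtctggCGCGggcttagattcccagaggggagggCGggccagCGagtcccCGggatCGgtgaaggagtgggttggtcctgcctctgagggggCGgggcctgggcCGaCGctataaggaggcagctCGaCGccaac
Cdkn1b promoter: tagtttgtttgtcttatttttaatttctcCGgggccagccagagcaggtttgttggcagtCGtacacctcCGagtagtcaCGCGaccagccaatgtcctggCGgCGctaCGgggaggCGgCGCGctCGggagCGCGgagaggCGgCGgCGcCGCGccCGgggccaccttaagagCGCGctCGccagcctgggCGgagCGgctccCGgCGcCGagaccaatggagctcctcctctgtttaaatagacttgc
The upstream Cdkn1a promoter holds 2 CpGs, the downstream Cdkn1a promoter 19 and the Cdkn1b promoter 28. Among 32851 promoters of the same length, 18.8% had fewer CpGs than the upstream Cdkn1a promoter, 80.3% fewer than the downstream one and 92.4% fewer than that of Cdkn1b. The ratio of observed to expected CpGs was 0.110, 0.771 and 1.08 in the same order. The upstream Cdkn1a promoter also has 2 matches to the p53 decamer consensus, which start 73 and 51 bases before the start site, and the other promoters have none. At least 1 match on this palindromic consensus occurs in 7.13% of all promoters and 2 or more in 0.259%. The GC box GGGCGG, searched on both strands, was found 2 times in the downstream Cdkn1a promoter and 1 time in that of Cdkn1b, and 32.7% of all promoters hold it. These matches are letters in a sequence and show no binding.

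The probes fell into 2 groups per gene. For Cdkn1a these were chr17:29226662-29228416 and chr17:29229448-29231007, with 8 probes each. Their starts lay 2786 bp apart, and the RefSeq start sites lie 2790 bp apart. For Cdkn1b they were chr6:134869120-134870716 with 8 probes and chr6:134877810-134879581 with 7 probes. The Cdkn1b groups were separated by 7093 bp, more than the 5125 bp that RefSeq gives for the whole gene. Probe positions are in mm9 and the RefSeq sequences in another build, so probes were not placed on the sequences. Whether the second Cdkn1b group belongs to the gene was not determined, and values below for Cdkn1b as a whole include it. In RefSeq the neighbouring protein-coding genes are Srsf3 and Rab44 for Cdkn1a and Gpr19 and Apold1 for Cdkn1b.

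Per the labels, Cy5 marked the immunoprecipitated DNA (IP) and Cy3 the input. On all arrays the input was the dim channel, with a median net signal of 5.95 to 8.78 over a background of 22 to 26, against 48.9 to 56.5 for IP. Both channels were brighter in shRNA8 cells, and net signals of different arrays given side by side below are not scaled to each other. No member spot was saturated, non-uniform or a population outlier. The input was above background on all 4 arrays at 22 of the 31 probes, 13 for Cdkn1a and 9 for Cdkn1b. Only 3 of 8 probes passed in the first Cdkn1b group, so its ratios rest on few probes. The log2 ratio of IP to input was shifted to a median of 0 per array and then quantile normalized, so that 0 stands for the middle of all probes that passed.

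The 9 probes that did not pass were of several kinds. At chr6:134877810-134877869 the net IP signal was 0.722 to 1.42 and the input was below background on all arrays, so this probe gave no usable signal. At chr6:134869534-134869578 the IP was 0.526 to 1.68 and the input -0.61 to 3.27. By contrast, chr17:29229863-29229907 had a net IP of 81.0 and 73.0 in control cells and 83.4 and 83.0 in shRNA8 cells at day -2 and day +2, with an input below 0 on every array. At chr6:134869734-134869779 the IP was 122 to 147 and the input 1.06 to 8.94. At these last 2 probes the IP was clear and the input was too weak, on 1 array or more, to form a ratio.

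Levels at Cdkn1a lay mostly above the array median. The mean normalized log2 ratio of its 13 probes was 0.64 ± 1.42 (SD over probes) in control cells at day -2, 0.82 ± 1.41 at day +2, 0.63 ± 1.45 in shRNA8 cells at day -2 and 0.65 ± 1.32 at day +2. Between 9 and 10 of the 13 probes were above the array median on each array. The means of the 4 arrays differ far less than the probes of 1 array do.

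In the first Cdkn1a group the ratio was highest at its first probe, chr17:29226662-29226706, with 2.46 and 2.08 in control cells and 2.31 and 2.30 in shRNA8 cells at day -2 and day +2. These values lie at percentiles 96.2 to 98.3 of all probes. The net IP there was 782 to 889 and the input 22.1 to 35.1. The brightest IP signal of the gene was at chr17:29227968-29228012, with 1090 to 1360, but its input was also bright, 156 to 226, and its ratio was -0.07 to 0.39. At chr17:29228171-29228216 the ratio was 1.71 and 1.12 in control cells and 1.39 and 1.38 in shRNA8 cells, and at chr17:29227749-29227793 it was 0.46 and 0.49 against 0.16 and 0.26. The last probe of the group, chr17:29228368-29228416, had 1.13 and 1.00 in control cells and -0.09 and -0.09 in shRNA8 cells. The profile thus fell and rose along the group on all arrays, but in shRNA8 cells it ended at the array median.

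The second Cdkn1a group held both high and low probes. At chr17:29229661-29229705 the ratio was 1.92 and 3.29 in control cells and 2.47 and 2.28 in shRNA8 cells, the highest of the group on each array. Its first probe, chr17:29229448-29229493, was near the array median, with -0.06 and -0.17 against 0.13 and 0.06. Its last, chr17:29230963-29231007, was below it on all arrays, with -0.80 and -0.81 against -0.70 and -0.64. In between the ratio dipped to -3.03 and -2.22 in control cells and -2.99 and -2.39 in shRNA8 cells at chr17:29230281-29230325, where the net IP was 8.24 to 10.7. The probes on both sides of this dip, chr17:29230078-29230125 and chr17:29230760-29230804, had ratios of 0.14 to 1.93. The failing probe between the dip and chr17:29230760-29230804 had a net IP of 25.4 to 33.4.

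At Cdkn1b the mean of the 9 probes was 0.51 ± 2.45 and 0.17 ± 2.52 in control cells and 0.06 ± 2.33 and -0.05 ± 2.26 in shRNA8 cells at day -2 and day +2. These means are pulled down by chr6:134879535-134879581, whose IP was at background and whose ratio is a floor. Of the 9 probes, 6 lie in the second group, whose tie to the gene was not determined. The medians were 0.86 and 0.75 in control cells and 0.65 and 0.26 in shRNA8 cells, at percentiles 57.7 to 75.5 of all probes. The highest ratios in the first group were at chr6:134870205-134870249, with 2.56 and 2.19 in control cells and 2.24 and 1.76 in shRNA8 cells. At chr6:134869946-134869990 the ratio was 0.24 and 0.54 in control cells and 0.37 and 0.26 in shRNA8 cells, on an IP of 236 to 284. Towards the end of that group the IP signal was close to background. It was 7.82 to 9.13 at chr6:134870406-134870455 and 3.76 to 5.65 at chr6:134870672-134870716, against 318 to 354 at chr6:134870205-134870249. Both weak probes had input above background on only 2 of the 4 arrays, and no normalized ratio was formed for them.

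In the second Cdkn1b group the ratio was highest at chr6:134878015-134878059 in control cells, with 2.96 and 1.75, against 1.28 and 1.52 in shRNA8 cells. The probe chr6:134878646-134878690 had 1.23 and 1.07 in control and 1.25 and 0.84 in shRNA8 cells. At chr6:134878985-134879030 the ratio was below the array median throughout, with -0.12 and -0.24 against -0.62 and -0.41. The neighbouring chr6:134879190-134879234 had the brightest IP of the group, 790 to 935, and ratios of 1.68 and 1.58 in control and 0.95 and 1.33 in shRNA8 cells. The last probe of the group, chr6:134879535-134879581, had the lowest ratio of both loci, -5.44 and -6.20 in control cells and -5.77 and -5.71 in shRNA8 cells. Its IP was not above background on any array (0.355 to 1.49), so these values are a floor set by the software, while its input was 18.8 to 30.2. That probe alone gives the second group its negative mean on 3 of the 4 arrays.

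The ratio differed with probe length on these arrays. Its median before centring was 0.30 to 0.38 at a length of 45 bp and -1.14 to -0.94 at 60 bp, and the cause was not tested. Among probes of 45 bp only, the 6 Cdkn1b probes had a median between percentiles 80.5 and 88.5 of their length class and the 8 Cdkn1a probes between 71.2 and 76.0. Most of the 6 Cdkn1b probes lie in the second group. Among the other lengths, the 3 Cdkn1b probes had a median between percentiles 38.0 and 48.4, with 1 of 3 above the class median, and the 5 Cdkn1a probes between 71.0 and 81.0. At the edges of the windows, the nearest probe before the Cdkn1a window, chr17:29216235-29216284, had 1.24 to 1.85, and the nearest after the Cdkn1b window, chr6:134930722-134930771, had 0.49 to 1.63. The nearest probes on the other sides did not pass.

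Before induction, at day -2, the lines were compared to see whether the ratio at these inhibitor genes already differed. None of the 4 groups met the size rule for regions, a mean shift of 0.6 or more in log2 units (1.52-fold) with at least 75% of the probes on that side, which 2.43% of the 17452 regions of the array met. All 7 probes of the first Cdkn1a group were lower in shRNA8 cells, with a mean of -0.40 ± 0.37 (SD over probes). All 6 probes of the second Cdkn1a group were higher, by 0.44 ± 0.58. Over the whole gene these cancelled to -0.01 ± 0.63 (13 probes). Only 1 of the 7 and 2 of the 6 differences exceeded the error of a difference described below. How many regions of the array have all probes on 1 side was not counted, nor how many of all probes exceeded this error. The first Cdkn1b group differed by -0.28 ± 0.39 (3 probes) and the second by -0.54 ± 0.63 (6 probes, 4 of them lower). Single probes weighed on these means. Without the probe farthest from the mean, the values became -0.26 and 0.21 for the Cdkn1a groups and -0.48 and -0.31 for the Cdkn1b groups.

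Of the 22 probes, 5 differed by 0.6 or more at day -2, 4 lower and 1 higher in shRNA8 cells, or 22.7% against 20.6% of all probes (10.8% lower and 9.8% higher). Counts near this background share say nothing particular of the 2 genes. At chr17:29228368-29228416, the last probe of the first Cdkn1a group, the net IP was 331 in control and 425 in shRNA8 cells, and the net input was 26.1 and 89.8. The normalized ratio was 1.13 in control and -0.09 in shRNA8 cells, a difference of -1.22. The error of a difference, combined from the authors' deposited error of each spot's ratio, was 0.34 there. At chr6:134878015-134878059 in the second Cdkn1b group the difference was -1.69 with an error of 0.60, between ratios of 2.96 and 1.28. Its input was 3.00 in control and 13.7 in shRNA8 cells, and its IP 142 and 168. The difference shrank to -0.15 when signals were used without background subtraction. At chr6:134879190-134879234 it was -0.74 with an error of 0.37, and the input was 41.8 and 92.9. Without background subtraction this difference was -0.61.

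The only higher probe was chr17:29230078-29230125, by 1.57 with an error of 0.75. Its input was 8.16 in control and 3.85 in shRNA8 cells, and the difference was 0.41 without background subtraction. Differences over 2 times their error occurred at 4 of the 22 probes, against 5.68% of all probes. Between arrays the scaled IP of the 22 probes differed by -0.21 to 0.20 and the scaled input by -1.45 to 1.71 on the log2 scale. At 21 of the 22 probes the input difference had the sign opposite to that of the ratio. The input is the denominator and the IP varied little, so this count was largely set in advance. The SD of the IP differences over the 22 probes was 0.09 to 0.12 in the 4 comparisons of lines and days, against 0.34 to 0.62 for the input. Over all probes these SDs were 0.11 to 0.14 and 0.51 to 0.57. By these SDs the differences at these loci lay mainly in the input channel, as they did over all probes. Why the input differed was not tested.

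At day +2, after induction, no group met the size rule either, against 3.34% of regions. The first Cdkn1a group differed by -0.31 ± 0.51 (7 probes, 4 lower) and the second by -0.01 ± 0.56 (6 probes). The first Cdkn1b group was lower at its 3 probes, by -0.47 ± 0.21, and 1 of these differences exceeded its error. Shares over all regions and probes were not counted for this either. The second Cdkn1b group differed by -0.10 ± 0.29 (6 probes, 5 lower). Without the probe farthest from the mean, the values became -0.18 and 0.19 for the Cdkn1a groups and -0.36 and -0.21 for the Cdkn1b groups. The probe left out of the second Cdkn1b group was chr6:134879535-134879581, whose IP was at background. Of the 22 probes, 6 passed 0.6, 5 lower and 1 higher, or 27.3% against 22.7% of all probes (12.5% lower and 10.2% higher).

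The probe chr17:29228368-29228416 was again lower in shRNA8 cells, with ratios of 1.00 in control and -0.09 in shRNA8 cells, a difference of -1.08 with an error of 0.33. Its input was 28.9 and 78.2 and its IP 365 and 383. The 3 passing probes just before it differed by -0.22, 0.01 and 0.26. Farther up the same group, chr17:29227327-29227371 differed by -0.68 (error 0.43) and chr17:29227545-29227594 by -0.64 (error 0.39). Their inputs in control and shRNA8 cells were 8.54 and 22.4 at the former and 12.5 and 28.9 at the latter. Without background subtraction the differences at this pair were -0.12 and -0.19. The fourth lower Cdkn1a probe was chr17:29229661-29229705, by -1.01 with an error of 0.52, with inputs of 7.03 and 20.6, and it was -0.38 without background subtraction. This probe had differed by 0.56 the other way at day -2, when the inputs were 19.4 and 18.8. The higher probe was chr17:29230760-29230804, by 0.68 with an error of 0.38, with ratios of 1.25 in control and 1.93 in shRNA8 cells, and by 0.39 without background subtraction. Differences over 2 times their error occurred at 2 probes, against 7.48% of all probes.

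The line differences at the 2 days share no array. Both differences passed 0.6 in the same direction at 2 of the 22 probes, both lower, and none was higher at both days. Of all probes, 3.51% were lower and 2.02% higher by this much at both days. The first was chr17:29228368-29228416, with -1.22 and -1.08, where 0.854% of all probes were lower by at least 1 at both days. Without background subtraction its differences were -0.61 and -0.71. The second was chr6:134869324-134869383, a 60 bp probe of the first Cdkn1b group, with -0.64 and -0.70 and errors of 0.32 and 0.31. Its input was 93.1 and 96.4 in control cells and 199 and 207 in shRNA8 cells, and its IP 1007 and 1031 against 1169 and 1112. At both probes the 2 control arrays lay above the 2 shRNA8 arrays in ratio. That follows largely from picking probes by their differences at both days, and it adds no support. The scaled input was higher in shRNA8 cells by 1.30 and 0.98 at the former and by 0.73 and 0.63 at the latter. The sign of the difference was shared between the days at 13 of 22 probes, or 8 of 13 for Cdkn1a and 5 of 9 for Cdkn1b, against 56.6% of all probes.

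An additive fit of line and day (limma, all probes, Benjamini-Hochberg adjustment) used the 4 arrays with 1 residual degree of freedom, which takes the line difference as equal at both days. It called none of the 95060 probes for line or for day at an adjusted p of 0.05 (0%), and 9.43% and 6.68% were under 0.05 before adjustment, 8963 and 6354 probes. For line, 2 of the 22 probes were under 0.05 before adjustment. These were chr17:29228368-29228416, with -1.15 ± 0.20 (SE) and a limma adjusted p of 0.477, and chr6:134869324-134869383, with -0.67 ± 0.20 and 0.494. For day they were chr17:29230281-29230325, with 0.71 ± 0.21, and chr6:134878266-134878310, with -0.68 ± 0.21, both with a limma adjusted p of 0.734. No member thus passed the adjusted test.

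The days in control cells show how the ratio at these genes differed between day -2 and day +2 in wildtype cells. With 1 array per day, induction cannot be told apart from variation between arrays. No group met the size rule, against 2.09% of regions. The second Cdkn1a group differed by 0.50 ± 0.67, with 3 of 6 probes higher and 3 lower. The second Cdkn1b group differed by -0.49 ± 0.45, with all 6 probes lower, 1 of them by more than its error. How common such counts are over all regions and probes was not counted, so they show nothing particular of this group. Without the probe farthest from the mean these became 0.32 and -0.35. The other groups were closer to 0, at -0.09 ± 0.42 for the first Cdkn1a and -0.06 ± 0.33 for the first Cdkn1b group. The mean for Cdkn1a was 0.18 ± 0.61 and that for Cdkn1b -0.35 ± 0.45.

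Of the 22 probes, 5 passed 0.6, 3 higher and 2 lower, or 22.7% against 19.2% of all probes (9.86% higher and 9.3% lower). The 3 higher ones were neighbours among the probes that passed in the second Cdkn1a group. At chr17:29229661-29229705 the ratio went from 1.92 to 3.29, a difference of 1.37 with an error of 0.52, as the input went from 19.4 to 7.03 and the IP from 478 to 498. At chr17:29230078-29230125 it went from 0.14 to 1.21, with inputs of 8.16 and 4.16, and the difference of 1.07 had an error of 0.71. At chr17:29230281-29230325 the difference was 0.81, less than its error of 1.23. Without background subtraction these 3 differences were 0.37, 0.42 and 0.31. With probes limited to input well above background, which leaves none of the 3, the group's mean became -0.09 over 3 probes. The lower probes were chr6:134878015-134878059, by -1.21 with an error of 0.63, and chr6:134879535-134879581, by -0.76 with an error of 1.23. The former was -0.14 without background subtraction, and the latter rests on IP at background. One probe differed by over 2 times its error, chr17:29229661-29229705, against 4.08% of all probes.

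In shRNA8 cells the group means differed less between the days than in control cells, except at the first Cdkn1b group, which differed more. The groups differed by 0.00 ± 0.15 and 0.05 ± 0.39 for Cdkn1a and by -0.25 ± 0.20 and -0.05 ± 0.45 for Cdkn1b, and none met the size rule, against 3.19% of regions. Without the farthest probe these were 0.05, -0.06, -0.14 and 0.10. In the first Cdkn1a group the 7 differences lay between -0.31 and 0.15. Of the 22 probes, 2 passed 0.6, 1 higher and 1 lower, or 9.09% against 18.9% of all probes (8.82% higher and 10% lower). These were chr17:29230281-29230325, by 0.61 with an error of 1.02, and chr6:134878266-134878310, by -0.79 with an error of 0.72. The former difference was below its error and the latter little above it in size. Without background subtraction the 2 differences were 0.10 and 0.00. The latter had inputs of 5.60 at day -2 and 10.9 at day +2, with an IP of 44.3 and 50.2. No probe differed by over 2 times its error, against 5.2% of all probes. The SD of the 22 differences was 0.32 in shRNA8 cells and 0.60 in control cells, against 0.53 and 0.52 over all probes. By gene it was 0.27 against 0.61 for Cdkn1a and 0.39 against 0.45 for Cdkn1b. Without background subtraction the Cdkn1b value was 0.22 in shRNA8 cells and 0.19 in control cells.

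The day changes of the lines were set side by side without a test, since 4 arrays leave no degree of freedom for this difference. The change in shRNA8 cells minus that in control cells was 0.09 ± 0.34 and -0.44 ± 0.88 for the Cdkn1a groups and -0.19 ± 0.19 and 0.44 ± 0.65 for the Cdkn1b groups. The largest values belonged to chr17:29229661-29229705 (-1.56), chr17:29230078-29230125 (-1.53) and chr6:134878015-134878059 (1.46). At these probes the scaled input differed between the days by -1.35, -0.81 and 1.21 in control cells and by 0.19, 0.57 and -0.10 in shRNA8 cells. The sign of the day change was shared between the lines at 12 of 22 probes, against 51.8% of all probes.

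Region calls were repeated under 10 other ways of processing, and 3 of them called a group. Without centring, the second Cdkn1b group met the size rule at day -2, with -0.62, and 2.73% of all regions did. At day +2 the first Cdkn1b group met it, with -0.64, against 4.14% of regions. Without a filter on input, the first Cdkn1b group met it at day +2, with -0.69 over 8 probes, against 2.04% of regions. After a within-array loess, the second Cdkn1b group met it between the days in control cells, with -0.74, against 5.29% of regions. Of the 7 ways without a call, IP alone called 0 of 17452 regions and signals without background subtraction called 1 to 14, so these could hardly call any group. With input well above background only 2 of the 4 groups still formed a region.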

How the data were processed

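Genomic DNA of 4 samples was profiled by methylated DNA immunoprecipitation on Agilent-format two-colour arrays, with 1 µg of DNA per sample labelled per the labels' protocols. The deposited intensity values come from Agilent Feature Extraction 11.0.1.1 on mm9, per the file headers: median spot and background signals, net signals, and processed signals that the authors' software dye-normalized. A deposited log10 ratio was not used, because it is set to 0 near background. Its deposited error, a score on the log10 scale, was combined over 2 arrays as the root of the summed squares and turned to log2. Deposited flags (other columns) marked poor spots. The submitters' processing notes name limma without a role. For shRNA8 cells at day +2 the label of the input channel names that day and also a stage before adipogenesis, and the day was used.

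Log2 ratios of processed Cy5 to Cy3 were computed. Spots flagged on any array were left out (174301 of 174638 probes kept), then those with input not above background on all arrays (95060 kept, 54.4%). Ratios were median-centred and quantile normalized, which removes any overall difference between samples. Neighbouring probes at most 1000 bp apart formed regions of at least 3 probes, 17452 in all. With 1 array per group no test within a day or a line was possible, and precision is limited by the number of arrays. An additive fit of line and day with limma over all probes, tested on simulated data, was added after seeing the data. Those simulated ratios had equal noise at every probe and shifts larger than any fitted at the members. They thus do not show what the fit could detect here. Region calling was first tested on simulated data. Every probe of both windows was described by the coordinate rule. The members and lists were chosen with earlier results of these data known. The files tie no probe to a gene, so other cell-cycle genes, and the genes most like the 2, were not analysed here. Alternatives were median centring alone, no centring, median absolute deviation scaling, loess (span 0.3), no background subtraction, no filter, stricter filter, the median of probes, a probe-length correction, each channel alone, and size rules of 1 and 0.4. Values per group of probes, and leaving out the farthest probe, were added after seeing the data. Calculations used pandas 2.3.3 and numpy 2.4.6 under Python 3.11.15, with limma 3.58.1 under R 4.3.3 for the loess and the additive fit.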

Additional observations from a re-analysis of the deposited data

How the results depend on the processing

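Mean differences of the 2 genes and 4 groups of probes in the 4 comparisons, 24 values, were recomputed under 12 alternatives, with 280 values in all. Of these, 263 moved by less than the SD over probes. That SD was larger than most of the means, so this count says little about stability. Among the 232 values that use the ratio, 30 differed in sign from the reported one, in 11 of the 24 means. The largest reported mean among these was 0.50, for the second Cdkn1a group between the days in control cells. It was -0.09 with input well above background, which still counts as a move of less than its SD over probes, 0.67.

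Means that moved by more than the SD over probes were mostly those of single channels. The input alone gave 0.45, 0.24 and 0.35 for Cdkn1b between the lines at day -2, at day +2 and between the days in control cells. For the first Cdkn1a group it gave line differences of 0.41 (day -2) and 0.31 (day +2), and for the second -0.37 between the lines at day -2 and -0.39 between the days in control cells. For the first Cdkn1b group it gave 0.32 and 0.49 between the lines and 0.23 between the days in shRNA8 cells, and for the second 0.51 between the lines at day -2 and 0.50 between the days in control cells. The IP alone gave -0.023 for the first Cdkn1a group at day -2, -0.025 for the first Cdkn1b group at day +2 and -0.042 for the second Cdkn1b group between the days in control cells. Without a filter, the first Cdkn1a group changed by 0.22 between the days in shRNA8 cells and the first Cdkn1b group differed by -0.69 between the lines at day +2. An opposite sign of the input is set by its place as the denominator. The cause of the other shifts was not tested.

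Counts of probes past 0.6 at day -2, at day +2, between the control days and between the shRNA8 days were 2, 5, 3 and 1 for Cdkn1a and 3, 1, 2 and 1 for Cdkn1b. At a threshold of 1 they were 2, 2, 2 and 0 for Cdkn1a and 1, 0, 1 and 0 for Cdkn1b. At 0.4 they were 3, 5, 7 and 2 for Cdkn1a and 4, 3, 3 and 3 for Cdkn1b. Without a filter they were 3, 4, 4 and 1 for Cdkn1a and 6, 3, 3 and 3 for Cdkn1b. Median centring alone moved 1 count by over 1.5 times, that of Cdkn1b at day +2, to 2. Shares of all probes in each comparison are given above only at 0.6 with the main processing. The counts at other settings have no such share beside them and say nothing particular of the 2 genes.

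No paired analysis was possible because each group has 1 array, so no replicate number pairs samples. The lines paired by day are the additive fit of the report, which called 0 probes. Leaving out a replicate would leave a group empty. Input signals under about 10, over a background of 22 to 26, limit what can be said of single probes.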
